A study of Drosophila melanogaster with 12 samples.

Results

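The genes described here are 62 non-coding genes of *Drosophila melanogaster* that FlyBase names by CR and a number, and that were expressed in larval neuroblasts or in S2 cells in which *barc* had been depleted. They were chosen by level: a symbol made of CR and digits alone, and a mean of at least 1 FPKM (fragments counted for each kilobase of transcript, per 1000000 that were mapped) over the 4 neuroblast libraries or over the 8 S2 libraries. Such a symbol is carried by 274 of the 14210 genes measured, and 62 of these reached the threshold. In neuroblasts 46 reached it and in S2 cells 45, 29 of them in both, 17 in neuroblasts alone and 16 in S2 cells alone. The gene *barc* encodes barricade, a relative of human TAT-SF1 that takes part in RNA splicing. Poly(A) RNA was sequenced in 4 groups. The *barc* RNAi neuroblasts (2 libraries) and the control neuroblasts (2 libraries) were sorted by their GFP from brains of late 3rd instar larvae raised at 29 °C. All these larvae carried dicer2, asense-Gal4, which is active in type I neuroblasts, and UAS-CD8::GFP. They came from a cross to a *barc* RNAi line, or, for the controls, to the empty landing site VIE-260B. S2 cells, a cultured line of embryonic, blood-cell-like origin, received double-stranded RNA (dsRNA) against *barc* (4 libraries) or, as control, against mCherry, which flies lack (4 libraries), for 7 days in medium with 10% serum. Both S2 groups thus took up dsRNA, and all 4 neuroblast libraries carried dicer2. The control neuroblasts carried no RNAi line, so in neuroblasts loss of *barc* and the expression of an RNAi construct cannot be told apart.

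A CR symbol says only that no protein is annotated, so the list joins RNAs that work in different ways. Long non-coding RNAs (lncRNAs) act as transcripts or leave no known product, and antisense RNAs are read from the strand opposite another gene. MicroRNA hosts are long primary transcripts from which Drosha cuts small hairpins that become microRNAs. Hairpin RNAs fold into long double strands that Dicer-2 cuts into endogenous small interfering RNAs. In the RefSeq annotation 40 of the 62 are lncRNAs, 16 antisense RNAs, 3 other non-coding RNAs, which are the hairpin RNAs CR18854, CR32205 and CR32207, and 3 pseudogenes (CR42875, CR43309 and CR43727). Among the lncRNAs, 7 hold annotated microRNA genes on the same strand: CR31044 (mir-279 and mir-996), CR43334 (bantam), CR43344 (the let-7 complex with let-7, mir-125 and mir-100), CR43459 (mir-34 and mir-277), CR43626 (mir-282), CR43650 (mir-8) and CR43651 (mir-14). CR42491 holds a snoRNA, a guide for RNA modification. CR43283 is *cherub*, an lncRNA known from fly neural stem cells, where it is shared unequally at division. The exons of the 62 genes add to a median of 1208.5 bases, with a range of 214 to 15466 bases, and 17 genes have 1 exon. No mature small RNA was measured, so values of hosts and hairpin RNAs are those of the long, polyadenylated transcript.

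Depletion was visible in every library. *barc* stood at 16.5 ± 2.02 FPKM in *barc* RNAi neuroblasts and 90.2 ± 5.39 FPKM in control neuroblasts (SD, n = 2 each), and at 4.46 ± 1.99 FPKM in *barc* dsRNA cells and 22.1 ± 1.39 FPKM in mCherry dsRNA cells (SD, n = 4 each). The fragments that the confidence intervals imply per gene summed to 42.0 to 48.7 M (M for 1000000) in *barc* RNAi neuroblasts, 27.1 to 30.4 M in control neuroblasts, 14.6 to 18.3 M in *barc* dsRNA cells and 18.8 to 28.6 M in mCherry dsRNA cells. All 6 neuroblast markers reached 1 FPKM in both neuroblast groups, with summed levels of 1367 to 1382 FPKM in *barc* RNAi and 1476 to 1509 FPKM in control libraries. Summed glial markers were 145 to 157 FPKM in *barc* RNAi and 218 to 222 FPKM in control neuroblasts, with 3 of 6 at 1 FPKM or more and repo at 0.224 FPKM or less. Summed neuronal markers were 41.4 to 41.7 FPKM in *barc* RNAi and 30.4 to 32.3 FPKM in control neuroblasts, with 2 of 7 at 1 FPKM or more. In S2 cells summed blood-cell markers were 465 to 502 FPKM after *barc* dsRNA and 325 to 434 FPKM after mCherry dsRNA, with all 7 at 1 FPKM or more. Not all markers followed their sum. Hml had a mean of 2.18 FPKM after *barc* dsRNA and 3.24 FPKM after mCherry dsRNA, and Pxn 2.20 and 4.97 FPKM. The glial marker loco had a mean of 23.1 FPKM in *barc* RNAi and 19.0 FPKM in control neuroblasts. The part of these marker differences in the changes below was not tested. Fewer cells of a type and less RNA per cell cannot be told apart in such bulk samples. In S2 cells, *barc* dsRNA replicates 1 and 2 stood apart from replicates 3 and 4. There the chi-square per degree of freedom over genes was 11.7 between replicates 1 and 2 and 9.90 between 3 and 4. Across these pairs it was 187 to 232. In mCherry dsRNA cells it was 37.1 between 1 and 2, 134 between 3 and 4, and 119 to 167 across. Replicates 3 and 4 of the mCherry dsRNA group thus differed from each other about as much as from replicates 1 and 2. The descriptions of the S2 samples set these pairs apart by a first number whose meaning is not stated. S2 values are therefore also given within each pair.

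The 62 genes were unequal in level, and a few short RNAs on the X chromosome made up most of their FPKM. As a share of all FPKM in a library, the 62 genes took 6.91% to 7.76% in *barc* RNAi neuroblasts, 7.38% to 7.84% in control neuroblasts, 4.32% to 5.999% in *barc* dsRNA cells and 1.55% to 4.67% in mCherry dsRNA cells. CR34335, an X-linked lncRNA at 3439895 to 3440143 in the coordinates of the tables, had 43122 and 37780.3 FPKM in *barc* RNAi neuroblasts, against 47765 and 44092 FPKM in control neuroblasts. CR40469, at 18880 to 19093 on X, had 5992 and 5755 FPKM in *barc* RNAi neuroblasts, against 7265 and 6880.0 FPKM in control neuroblasts. Both lie in a 1-exon annotation of under 400 bases, a length at which FPKM depends strongly on how the effective length was set. Below them the list fell off quickly: 7 genes averaged at least 100 FPKM in neuroblasts and 6 in S2 cells, while 30 of the 46 and 26 of the 45 lay between 1 and 10 FPKM. The median level of the genes past the threshold was 3.42 FPKM in neuroblasts and 8.09 FPKM in S2 cells.

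**Figure D1:**
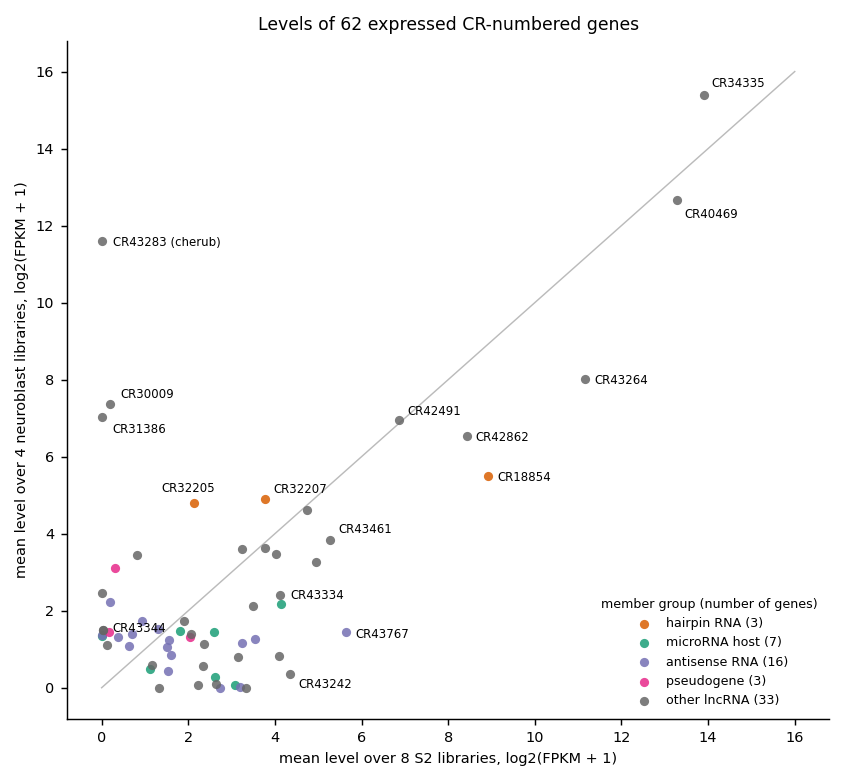
Mean level of each of the 62 genes over the 4 neuroblast libraries (vertical axis) against its mean over the 8 S2 libraries (horizontal axis), both as log2(FPKM + 1), coloured by kind of RNA, with a grey line where the levels are equal. CR34335 and CR40469 lead in both systems, while cherub, CR30009 and CR31386 are high in neuroblasts and at or near 0 in S2 cells.

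The systems shared only part of the list. All 4 neuroblast libraries lay above all 8 S2 libraries for 16 genes, the reverse held for 24, and the libraries overlapped for 22. These levels chose the genes and the systems differ in library kit (KAPA by hand for neuroblasts, NEB on a robot for S2 cells), so cell type and kit cannot be told apart and no test was made. *cherub* (3R, 7073825 to 7081845) ranked 3 of the 62 in neuroblasts, with a mean of 3123 FPKM, and was listed at 0 in 5 of 8 S2 libraries with at most 0.0413 FPKM in the others. Its neighbour CR31386 (3R, 7095137 to 7131330), also an lncRNA, averaged 131 FPKM in neuroblasts and was listed at 0 in all 8 S2 libraries. CR30009 (2R, 6148820 to 6151331), an lncRNA of no stated function, averaged 165 FPKM in neuroblasts and 0.144 FPKM in S2 cells. The let-7 complex host CR43344 (2L, 18455717 to 18472900), whose microRNAs time development, averaged 1.54 FPKM in neuroblasts and was listed at 0 in 7 S2 libraries. On the S2 side, the hairpin RNA CR18854 (2L, 9787279 to 9790745) averaged 44.4 FPKM in neuroblasts and 483 FPKM in S2 cells. CR42862 (3L, 224106 to 230964), which shares 21.87% of its span with CG33229 on the same strand, averaged 92.2 FPKM in neuroblasts and 343 FPKM in S2 cells. CR43242 was at 0.289 and 19.3 FPKM in the same order, CR43767 at 1.72 and 49.2 FPKM, and the antisense RNA CR42860 and CR43769 were listed at 0 in all 4 neuroblast libraries. CR42491, inside the ribosomal protein gene RpL22 on the same strand, was nearly level, with means of 122 FPKM in neuroblasts and 115.2 FPKM in S2 cells whose libraries overlapped.

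In *barc* RNAi neuroblasts a set of these RNAs moved in both directions, led upward by the lncRNAs CR43356, CR31451 and CR43264. The bantam host and the abundant lncRNA CR30009 were among those that fell. Of the 46 genes tested, 22 passed an adjusted p of 0.05 in limma, 13 higher and 9 lower in *barc* RNAi neuroblasts. That is 47.8% of them, against 42.9% of all 6732 genes tested. The higher calls were 28.3% of the 46 against 19.1% of all genes, and the lower calls 19.6% against 23.8%. The median log2 fold change of the 46 was 0.04, beside -0.02 over all genes. With FPKM rescaled to TPM, calls over all genes split into 2067 higher and 1041 lower in place of 1283 and 1605, and those of the 46 into 15 and 8. The *barc* RNAi and control libraries did not overlap for 32 of the 46 (69.6%) and for 74.7% of all genes. Of the 22 calls, 18 held in each fit without 1 library in which the gene could be tested. Each such fit leaves 1 library in a group, which is assumed to vary like the other group. Log2 fold changes are on the log2(FPKM + 1) scale, *barc* minus control, which understates changes of genes near 1 FPKM. The filter of 1 FPKM takes the mean over both groups, so some called genes passed it only through their higher group. These are CR31451, CR43344 and CR42742, with control means of 0.728, 0.855 and 0 FPKM, and CR43309, with a *barc* RNAi mean of 0.953 FPKM. Their calls are given as description.

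**Figure D2:**
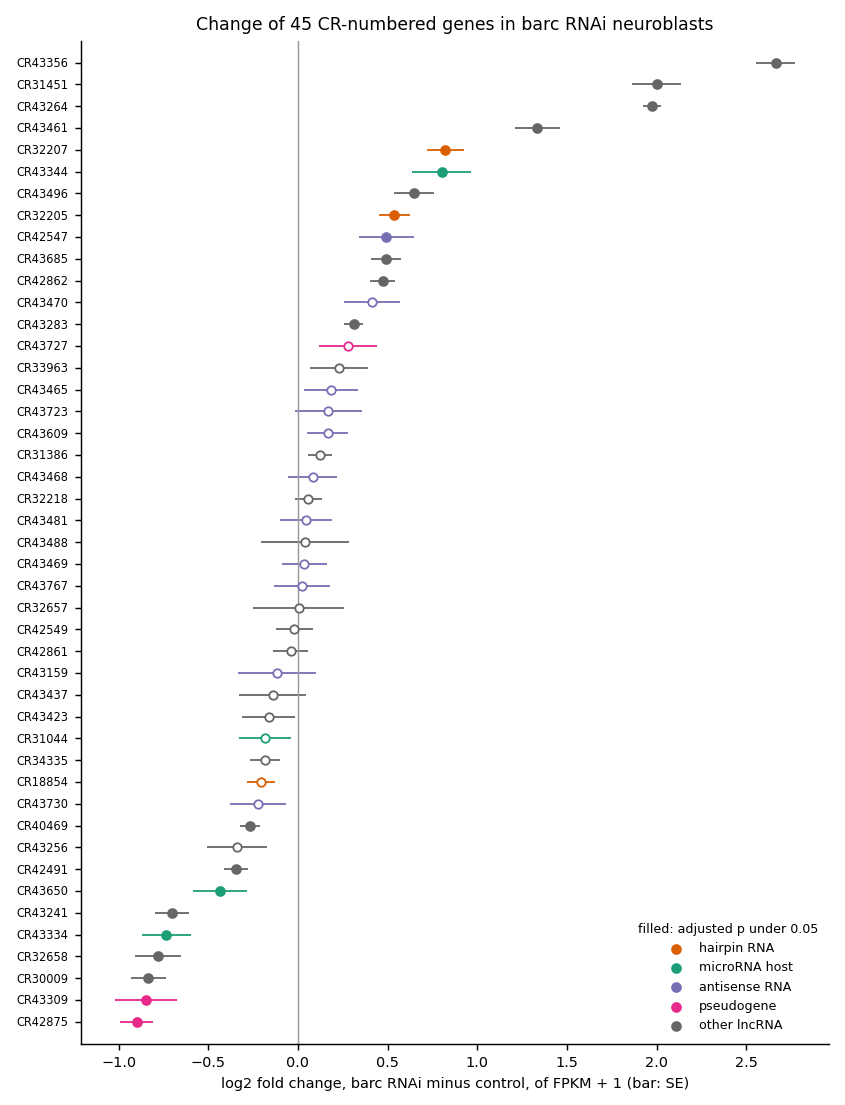
Log2 fold change of FPKM + 1, barc RNAi minus control, in neuroblasts for 45 of the 46 genes tested, sorted, with the standard error as a bar; filled points have an adjusted p under 0.05 in limma and colour gives the kind of RNA. CR42742, listed at 0 in both controls, is not drawn. CR43356 is at the top with 2.66 and the pseudogene CR42875 at the bottom with -0.90.

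The strongest rises were in lncRNAs. CR43356 (2L, 12174090 to 12174638) had 19.7 and 15.9 FPKM in *barc* RNAi neuroblasts, against 2.04 and 1.88 FPKM in controls, a log2 fold change of 2.66 (SE 0.11, adjusted p = 1.21e-06). Its end touches crok, a gene for a membrane-anchored protein on the opposite strand, over 0.364% of its span. CR31451 (3R, 19809225 to 19810787), now named *mimi*, had 6.599 and 5.29 FPKM in *barc* RNAi, against 0.712 and 0.744 FPKM in control neuroblasts (log2 2.00, SE 0.14, adjusted p = 1.82e-05). It overlaps no other gene. CR43264 (X, 5725931 to 5726248) had 416 and 415 FPKM in *barc* RNAi, against 102 and 108 FPKM in control neuroblasts (log2 1.97, SE 0.05, adjusted p = 2.47e-07). The last of these is a 318-base RNA that lies whole within CG15765 on the other strand. CR43461 (X, 6626750 to 6629950), antisense to CG3168 over its whole span, had 22.6 and 16.5 FPKM in *barc* RNAi, against 7.23 and 6.89 FPKM in control neuroblasts (log2 1.33, SE 0.12, adjusted p = 9.58e-05). In none of these genes did a *barc* RNAi library overlap a control library. The antisense RNA CR42742 (2R, 18872908 to 18874062) had 4.46 and 1.49 FPKM in *barc* RNAi neuroblasts and was listed at 0 in both controls, so no fold change is given; its adjusted p was 0.00184, and without *barc* RNAi replicate 1 its mean fell below the filter.

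Smaller rises were found in abundant RNAs. *cherub* had 3468 and 3446 FPKM in *barc* RNAi neuroblasts, against 2716 and 2863 FPKM in controls, a log2 fold change of 0.31 (SE 0.05, adjusted p = 0.00214). The groups did not overlap, and the rise of 1.24-fold in means was among the smallest of the calls. CR31386, its neighbour, had 146 and 127 FPKM in *barc* RNAi and 125 and 124 FPKM in control neuroblasts, with a log2 fold change of 0.12 (SE 0.07, adjusted p = 0.173). CR42862 had 114 and 100.4 FPKM in *barc* RNAi, against 75.1 and 78.9 FPKM in control neuroblasts (log2 0.47, SE 0.07, adjusted p = 0.000922). CR43496 had 11.98 and 9.64 FPKM in *barc* RNAi, against 7.03 and 6.01 FPKM in controls (log2 0.65, SE 0.11, adjusted p = 0.00223). CR43685 had 11.2 and 12.8 FPKM in *barc* RNAi, against 7.99 and 8.45 FPKM in controls (log2 0.49, SE 0.09, adjusted p = 0.00221). The antisense RNA CR42547 stood lower, at 2.29 and 1.82 FPKM in *barc* RNAi and 1.02 and 1.31 FPKM in control neuroblasts (log2 0.49, SE 0.15, adjusted p = 0.0309). Its call was lost without *barc* RNAi replicate 1 (adjusted p = 0.0954), control 1 (0.198) or control 2 (0.0747), and after quantile normalisation (0.0703).

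Precursors of small RNAs did not move as a block in neuroblasts. Of the 3 hairpin RNAs 2 rose, beside 19.1% of all genes. CR32207 (3L, 19470429 to 19471769) had 41.3 and 33.2 FPKM in *barc* RNAi, against 22.02 and 19.1 FPKM in controls, a log2 fold change of 0.82 (SE 0.10, adjusted p = 0.000465). CR32205 (3L, 19415938 to 19417283) had 35.0 and 28.9 FPKM in *barc* RNAi, against 22.1 and 21.1 FPKM in controls (log2 0.54, SE 0.09, adjusted p = 0.00155). In the authors' deposited table CR32205 has a log2 of 0.03 and an adjusted p of 0.937, so its rise is seen in FPKM and not there. CR18854 had 44.5 and 38.0 FPKM in *barc* RNAi and 48.5 and 46.7 FPKM in control neuroblasts (log2 -0.21, SE 0.08, adjusted p = 0.0574). Of the 7 microRNA hosts 4 were tested: 1 rose, 2 fell and 1 was not called, beside 19.1% of all genes higher and 23.8% lower. The let-7 complex host CR43344 had 1.98 and 2.48 FPKM in *barc* RNAi, against 0.684 and 1.03 FPKM in controls (log2 0.80, SE 0.16, adjusted p = 0.00481; 0.0502 without control 1). The bantam host CR43334 (3L, 628435 to 643900), whose microRNA promotes growth and survival, had 2.47 and 2.26 FPKM in *barc* RNAi, against 5.31 and 3.96 FPKM in controls (log2 -0.74, SE 0.14, adjusted p = 0.00306). The mir-8 host CR43650 (2R, 12716605 to 12723038) had 1.54 and 1.21 FPKM in *barc* RNAi, against 2.47 and 1.96 FPKM in controls (log2 -0.44, SE 0.15, adjusted p = 0.0452). This last call was lost without *barc* RNAi replicate 2 (adjusted p = 0.0860), control 1 (0.301) or control 2 (0.0878), and in TPM (0.0737). CR31044, host of mir-279 and mir-996, had means of 1.54 ± 0.120 FPKM in *barc* RNAi and 1.89 ± 0.283 FPKM in control neuroblasts (SD, n = 2 each; adjusted p = 0.331).

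Besides these hosts, 7 genes fell in neuroblasts. CR30009, rank 5 of the 62 in these cells, had 105 and 132 FPKM in *barc* RNAi, against 202 and 220.2 FPKM in controls, a log2 fold change of -0.84 (SE 0.10, adjusted p = 0.000307). The lncRNA CR32658 had 3.36 and 2.67 FPKM in *barc* RNAi, against 5.30 and 6.52 FPKM in controls (log2 -0.78, SE 0.13, adjusted p = 0.0017). CR43241 (2L, 22131221 to 22132435) had 16.1 and 19.4 FPKM in *barc* RNAi, against 27.4 and 31.5 FPKM in controls (log2 -0.70, SE 0.10, adjusted p = 0.000683). For each of them the libraries of the groups were apart. Pseudogenes are counted here because their transcripts are not annotated to make protein. CR42875 had 4.73 and 5.33 FPKM in *barc* RNAi, against 9.79 and 10.7 FPKM in controls (log2 -0.90, SE 0.09, adjusted p = 0.000152). CR43309 had 0.653 and 1.25 FPKM in *barc* RNAi, against 2.47 and 2.48 FPKM in controls (log2 -0.85, SE 0.17, adjusted p = 0.00489). The third pseudogene, CR43727, had means of 1.75 ± 0.456 FPKM in *barc* RNAi and 1.25 ± 0.121 FPKM in control neuroblasts (SD, n = 2 each; adjusted p = 0.201). Reads of a pseudogene can also belong to its parent gene, so these values are uncertain. CR42491 in RpL22 had 103 and 112 FPKM in *barc* RNAi, against 129 and 144 FPKM in controls (log2 -0.35, SE 0.07, adjusted p = 0.00388), and the abundant CR40469 fell by 0.27 on the log2 scale (SE 0.06, adjusted p = 0.00643). CR40469 lost its call without *barc* RNAi replicate 2 (adjusted p = 0.0616), and after quantile normalisation, which gives equal ranks equal values, its log2 fold change was 0. CR34335 had a log2 fold change of -0.19 (SE 0.08, adjusted p = 0.105). Of the 12 antisense RNAs tested 2 were called, both higher (CR42742 and CR42547), beside 42.9% of all genes called and 19.1% higher, and their median log2 fold change was 0.12.

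**Figure D3:**
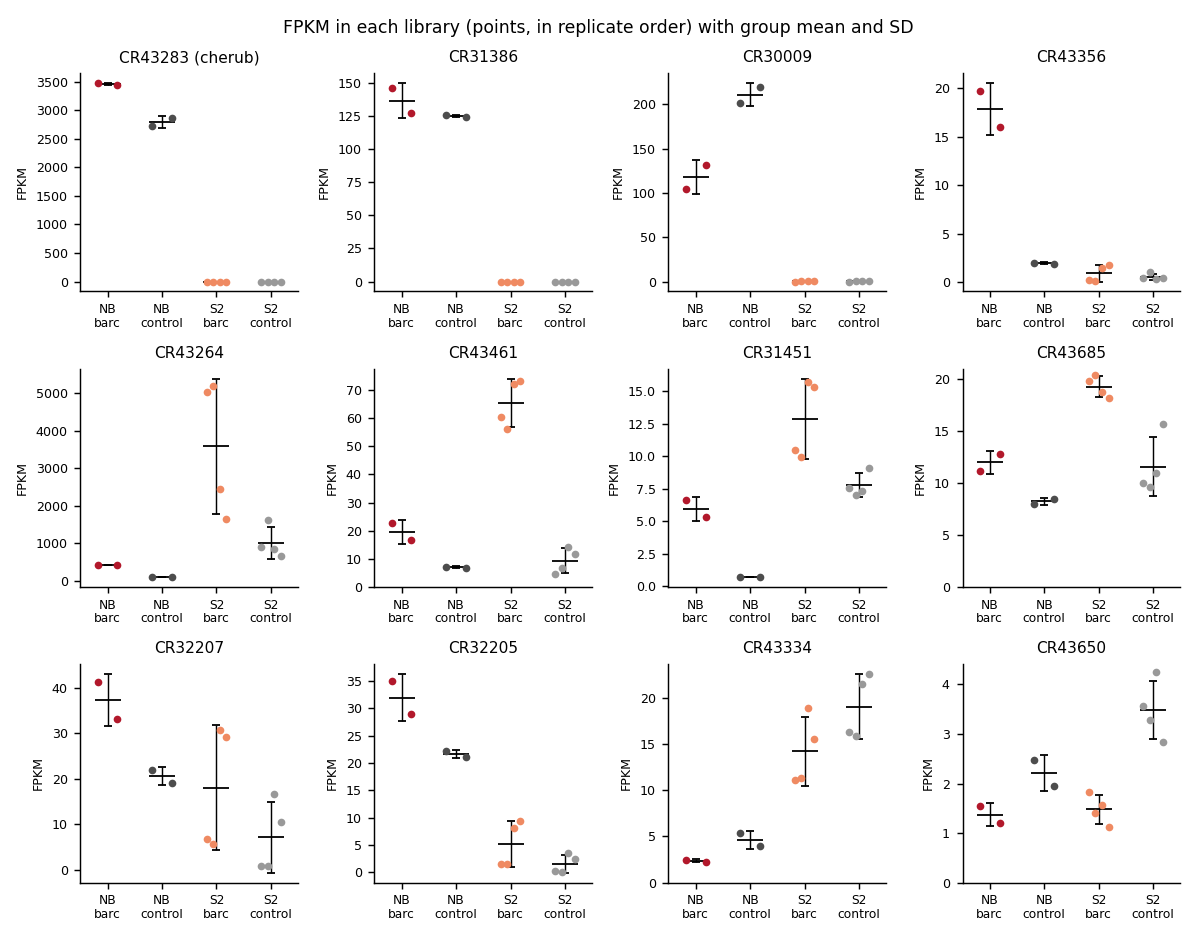
FPKM of 12 of the genes in every library, on linear axes, with the 2 barc RNAi and 2 control neuroblast libraries to the left and the 4 barc dsRNA and 4 mCherry dsRNA S2 libraries to the right of each panel; lines give the group mean and SD. CR43264, CR43461, CR31451 and CR43685 are higher after barc depletion in both systems and CR43650 is lower in both, while the hairpin RNAs CR32207 and CR32205 differ within each S2 group between replicates 1 and 2 and replicates 3 and 4.

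In S2 cells depletion of *barc* raised CR43461 and CR43264 again, together with the host of mir-34 and mir-277, and lowered 4 antisense RNAs and the hosts of mir-8, mir-282, and mir-279 and mir-996. Of the 45 genes tested, 18 were called, 8 higher and 10 lower after *barc* dsRNA. That is 40% of them, against 26.7% of all 7603 genes tested. The higher calls were 17.8% of the 45 against 11.5% of all genes, and the lower calls 22.2% against 15.2%. The median log2 fold change of the 45 was 0.01, beside -0.06 over all genes. Rescaling to TPM moved the median over all genes to 0.06, or to 0.09 where the 62 genes were left out of the scale, so small changes are best read against that median. On the TPM scale calls over all genes split into 932 higher and 816 lower in place of 876 and 1154, and those of the 45 into 8 and 6. With the 62 genes left out of the scale these were 1109 and 783, and 8 and 5. The groups did not overlap for 21 of the 45 (46.7%) and for 32.1% of all genes. Within replicates 1 and 2 all 18 calls kept their sign and 18 were called, where the fit called 5460 of 7468 genes; within replicates 3 and 4, 17 kept their sign, CR43436 was not tested and 9 were called, where it called 927 of 7646. Of the 18, 12 held in each fit without 1 library in which the gene could be tested. Calls over all genes moved as well in these fits, to between 1104 and 2513 in place of 2030. Of the calls, CR43436 (mean 0.363 FPKM after mCherry dsRNA) and CR43629 (mean 0.948 FPKM after *barc* dsRNA) passed the filter of 1 FPKM only through their higher group. Those calls are given as description.

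**Figure D4:**
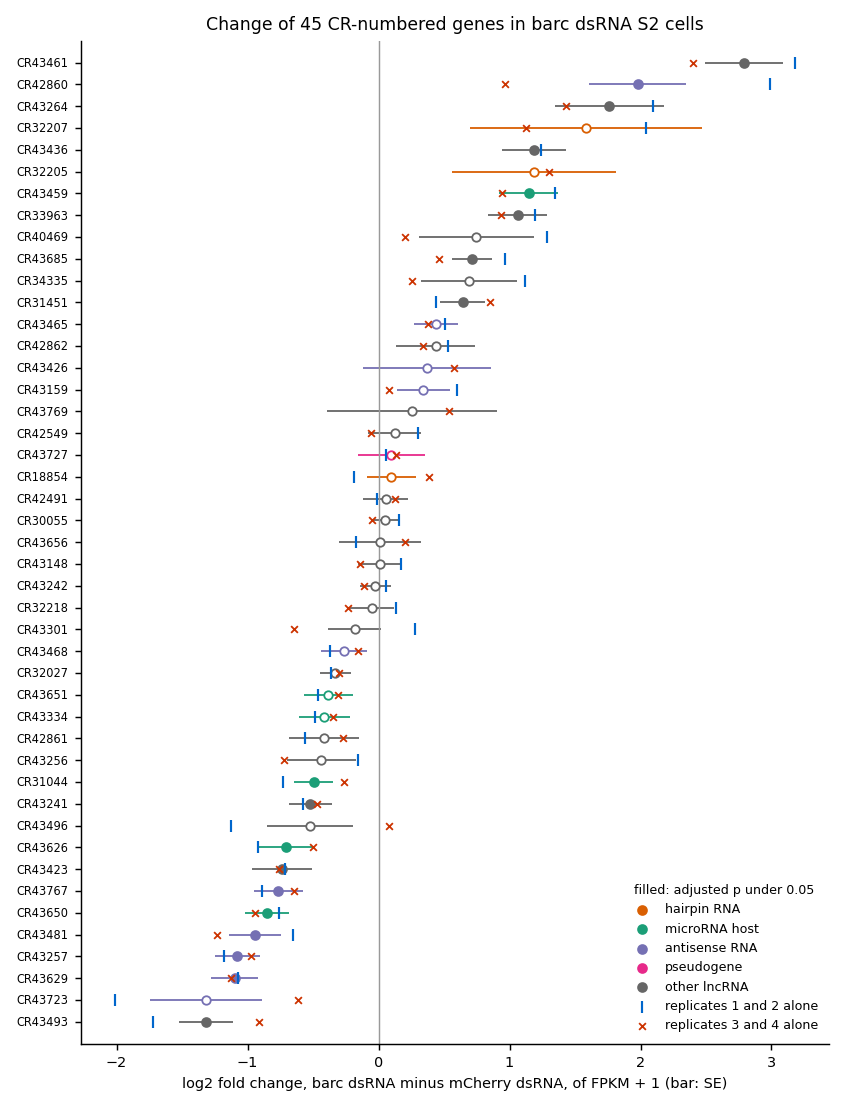
Log2 fold change of FPKM + 1, barc dsRNA minus mCherry dsRNA, in S2 cells for the 45 genes tested, sorted, with the standard error as a bar; filled points have an adjusted p under 0.05 in limma, and blue and red marks give the values within replicates 1 and 2 and within replicates 3 and 4. CR43461 is at the top with 2.79, and the marks of CR42860, CR32207 and CR43723 lie far apart.

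The largest rise in S2 cells was in an X-linked lncRNA, CR43461. It had 60.5, 55.9, 72.2 and 73.1 FPKM after *barc* dsRNA, against 4.53, 6.68, 14.4 and 11.7 FPKM after mCherry dsRNA, a log2 fold change of 2.79 (SE 0.30, adjusted p = 0.000787). CR43264 had 5031, 5196, 2444 and 1642 FPKM after *barc* dsRNA, against 889, 1613, 849 and 652 FPKM after mCherry dsRNA (log2 1.76, SE 0.42, adjusted p = 0.0165). Its lowest *barc* dsRNA library was just above its highest control library, and its log2 fold change was 2.09 within replicates 1 and 2 and 1.43 within 3 and 4. CR42860 (3L, 2088166 to 2089626), antisense to sls, the fly titin gene, had 14.6, 11.3, 5.98 and 6.59 FPKM after *barc* dsRNA, against 0.949, 0.562, 2.97 and 2.50 FPKM after mCherry dsRNA (log2 1.98, SE 0.37, adjusted p = 0.00726). The pairs differed in size for it, at 2.99 within replicates 1 and 2 and 0.97 within 3 and 4. The low lncRNA CR43436 had 2.32, 2.99, 1.72 and 1.42 FPKM after *barc* dsRNA, against 0.659, 0.425, 0 and 0.366 FPKM after mCherry dsRNA (log2 1.19, SE 0.25, adjusted p = 0.0104; 0.0531 after quantile normalisation). CR33963, inside Tis11, a gene for an mRNA decay factor, on the same strand, had 3.38, 4.65, 3.70 and 4.29 FPKM after *barc* dsRNA, against 0.974, 1.40, 0.932 and 2.53 FPKM after mCherry dsRNA (log2 1.06, SE 0.22, adjusted p = 0.011).

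CR43459, host of mir-34 and mir-277, was the microRNA host that rose. It had 9.92, 8.403, 5.24 and 6.44 FPKM after *barc* dsRNA, against 3.03, 2.95, 1.74 and 3.58 FPKM after mCherry dsRNA (log2 1.14, SE 0.23, adjusted p = 0.00885). CR43685 had 19.8, 20.3, 18.7 and 18.1 FPKM after *barc* dsRNA, against 9.995, 9.58, 10.9 and 15.7 FPKM after mCherry dsRNA, a log2 fold change of 0.71 (SE 0.15, adjusted p = 0.0119). CR31451 had 10.4, 9.93, 15.7 and 15.3 FPKM after *barc* dsRNA, against 7.54, 7.01, 7.34 and 9.08 FPKM after mCherry dsRNA (log2 0.64, SE 0.17, adjusted p = 0.0268). Its groups were apart, but its call was lost without *barc* dsRNA replicate 3 or 4 or without mCherry dsRNA replicate 1, 2 or 3 (adjusted p = 0.0525 to 0.0763).

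Of the 6 microRNA hosts tested in S2 cells 3 fell and 1 rose, beside 15.2% and 11.5% of all genes. For 2 of the 3 falls the call was lost in some fits without 1 library. Over these fits the log2 fold change was -0.90 to -0.57 for CR43626 and -0.57 to -0.42 for CR31044. The mir-8 host CR43650 had 1.83, 1.41, 1.57 and 1.12 FPKM after *barc* dsRNA, against 3.57, 3.29, 4.25 and 2.84 FPKM after mCherry dsRNA (log2 -0.85, SE 0.17, adjusted p = 0.00941). The mir-282 host CR43626 had 3.69, 4.56, 8.28 and 5.57 FPKM after *barc* dsRNA, against 9.43, 7.92, 10.9 and 9.24 FPKM after mCherry dsRNA (log2 -0.71, SE 0.21, adjusted p = 0.0377). Here *barc* dsRNA replicate 3 reached into the control range, and the call was lost without any single library but that one (adjusted p = 0.0563 to 0.0992). The mir-279 and mir-996 host CR31044 had 3.75, 3.22, 4.65 and 4.42 FPKM after *barc* dsRNA, against 6.66, 6.21, 6.29 and 5.04 FPKM after mCherry dsRNA (log2 -0.50, SE 0.15, adjusted p = 0.0377). It lost its call without *barc* dsRNA replicate 1 or 2 or without mCherry dsRNA replicate 1, 2 or 3 (adjusted p = 0.0834 to 0.107). The bantam host CR43334 had 11.1, 11.3, 18.9 and 15.5 FPKM after *barc* dsRNA and 16.3, 15.8, 21.5 and 22.6 FPKM after mCherry dsRNA (log2 -0.41, SE 0.20, adjusted p = 0.143). With the replicate numbers as a block its adjusted p was 0.0291. CR43423, read against the bantam host from the other strand, had 1.87, 1.82, 2.10 and 2.38 FPKM after *barc* dsRNA, against 3.67, 3.67, 2.83 and 6.84 FPKM after mCherry dsRNA (log2 -0.74, SE 0.23, adjusted p = 0.0418). Its call was lost without any single library but mCherry dsRNA replicates 3 and 4 (adjusted p = 0.0533 to 0.102).

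Of the 10 genes that RefSeq labels antisense RNAs and that were tested in S2 cells, 4 fell and 1, CR42860, rose, beside 15.2% and 11.5% of all genes. CR43629 (3R, 278660 to 280017), antisense to CG31522, had 0.883, 0.872, 1.38 and 0.661 FPKM after *barc* dsRNA, against 2.65, 3.28, 3.46 and 3.20 FPKM after mCherry dsRNA (log2 -1.10, SE 0.18, adjusted p = 0.00405). CR43257, which overlaps Orc4, a gene of the origin recognition complex, and the hormone gene ETH, had 5.73, 5.01, 4.25 and 4.23 FPKM after *barc* dsRNA, against 14.6, 12.3, 9.57 and 9.03 FPKM after mCherry dsRNA (log2 -1.08, SE 0.17, adjusted p = 0.004). CR43481 had 8.81, 8.15, 5.14 and 5.78 FPKM after *barc* dsRNA, against 11.03, 17.4, 15.4 and 13.04 FPKM after mCherry dsRNA, a log2 fold change of -0.94 (SE 0.20, adjusted p = 0.0107). Despite its label, CR43481 overlaps no other gene in the deposited coordinates. CR43767, antisense to Tango14, had 40.8, 39.05, 32.4 and 30.8 FPKM after *barc* dsRNA, against 73.3, 76.4, 56.5 and 43.98 FPKM after mCherry dsRNA, a log2 fold change of -0.77 (SE 0.19, adjusted p = 0.019). Its call was lost without mCherry dsRNA replicate 1 (adjusted p = 0.0566) or 2 (0.0563). CR43723, antisense to Coop, had 1.80, 1.80, 7.81 and 8.65 FPKM after *barc* dsRNA, against 10.1, 10.5, 14.3 and 12.1 FPKM after mCherry dsRNA (log2 -1.32, SE 0.43, adjusted p = 0.0505; 0.0151 with the replicate numbers as a block). Coop itself fell, with 32.5 FPKM after *barc* dsRNA and 56.1 FPKM after mCherry dsRNA (log2 -0.76, SE 0.23, adjusted p = 0.0386). The lncRNA CR43493 (X, 21889690 to 21892708), within l(1)G0196 on the other strand, had 4.65, 3.99, 5.54 and 4.41 FPKM after *barc* dsRNA, against 16.02, 16.9, 11.9 and 8.72 FPKM after mCherry dsRNA (log2 -1.32, SE 0.20, adjusted p = 0.00352). CR43241 had 20.01, 20.8, 22.99 and 19.2 FPKM after *barc* dsRNA, against 25.7, 37.04, 36.7 and 23.5 FPKM after mCherry dsRNA, a log2 fold change of -0.52 (SE 0.17, adjusted p = 0.0469). Without any single library but mCherry dsRNA replicate 4 its call was lost (adjusted p = 0.0507 to 0.122).

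None of the 3 hairpin RNAs and neither of the abundant X-linked RNAs CR34335 and CR40469 was called between treatments in S2 cells without a block (limma; 0 of 5 also at an unadjusted p under 0.05). CR32207 had 6.74, 5.68, 30.6 and 29.2 FPKM after *barc* dsRNA and 0.695, 0.790, 16.6 and 10.4 FPKM after mCherry dsRNA, with a log2 fold change of 1.59 (SE 0.89, adjusted p = 0.204). Replicates 3 and 4 were higher than replicates 1 and 2 in both groups, and *barc* dsRNA was higher within each pair, by 2.05 in replicates 1 and 2 and 1.13 in replicates 3 and 4. With the replicate numbers as a block the adjusted p was 0.00384. CR32205 had 1.58, 1.55, 8.15 and 9.36 FPKM after *barc* dsRNA and 0.281, 0.165, 3.46 and 2.50 FPKM after mCherry dsRNA (log2 1.19, SE 0.63, adjusted p = 0.182; 0.00299 with the block). CR18854 had 399, 393, 635 and 586 FPKM after *barc* dsRNA and 459, 445, 543 and 403 FPKM after mCherry dsRNA (log2 0.10, SE 0.19, adjusted p = 0.729). CR34335 had 15219.6, 17728, 24005 and 16434 FPKM after *barc* dsRNA and 5647, 10135, 21247 and 12979 FPKM after mCherry dsRNA (log2 0.69, SE 0.37, adjusted p = 0.183; 0.0416 with the block, and 0.0657 with the first number of the descriptions as the block). CR40469 ran alongside it, with 10559.9, 10058, 16283 and 10588 FPKM after *barc* dsRNA and 2941, 6063, 14949 and 8679 FPKM after mCherry dsRNA (log2 0.75, SE 0.44, adjusted p = 0.225). Both RNAs were lowest in mCherry dsRNA replicate 1 and next lowest in mCherry dsRNA replicate 2. The block also brought in CR32027 (adjusted p = 0.0433 in place of 0.0668) and cost none of the 18 calls. In TPM, CR31044 (adjusted p = 0.0754), CR43241 (0.0707), CR43423 (0.0839) and CR43767 (0.0574) were not called, nor was CR43241 after quantile normalisation (0.0628).

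Of the 29 genes tested in both systems, 6 were called in both, and all 6 changed in the same direction. CR43264, CR43461, CR31451 and CR43685 were higher after *barc* depletion in each system, and CR43241 and the mir-8 host CR43650 were lower in each. Over all genes tested in both, 832 of 6298 (13.2%) were called in both, 705 of them in the same direction. The difference of the changes, neuroblasts minus S2 cells, was called for 1 of the 29, against 3.6% of all genes (2.16% higher and 1.44% lower). This was CR31451, whose rise was larger in neuroblasts by 1.36 on the log2 scale (SE 0.27, adjusted p = 0.0207). That call was lost without any single neuroblast library (adjusted p = 0.0681 without *barc* RNAi replicate 2, 0.149 without *barc* RNAi replicate 1, 0.108 without control 1 and 0.11 without control 2), and 3 genes were called without mCherry dsRNA replicate 4. CR43461 had a difference of -1.46 (SE 0.47, adjusted p = 0.118) and CR43264 one of 0.21 (SE 0.63, adjusted p = 0.881). CR43496, higher in *barc* RNAi neuroblasts, had a log2 fold change of -0.52 (SE 0.33, adjusted p = 0.256) in S2 cells, and the difference was 1.17 (SE 0.51, adjusted p = 0.235).

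**Figure D5:**
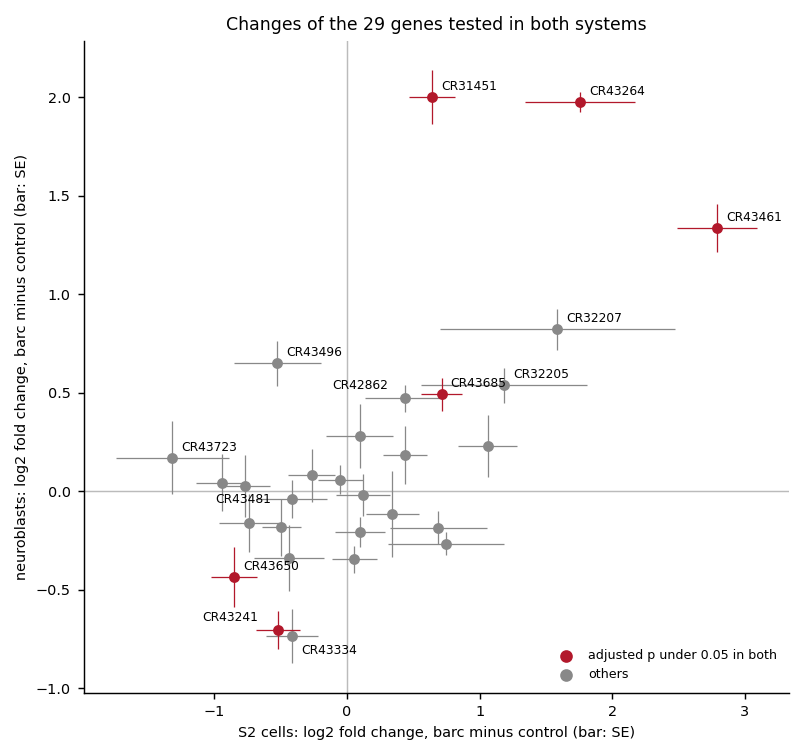
Log2 fold change in neuroblasts (vertical axis) against that in S2 cells (horizontal axis), each barc minus control, for the 29 genes tested in both, with standard errors; red points were called in both systems. The 6 red points lie at the upper right and the lower left of the origin, and the bars are longer for S2 cells than for neuroblasts in CR43264, CR32207 and CR32205.

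Many of these RNAs share their stretch of genome with another gene. Overlap was taken over whole gene spans, introns included, so exons need not overlap. Where exons on opposite strands do overlap, their fragments can be told apart only by strand. Strand does not separate genes on the same strand. Libraries were strand-specific, but the strand setting of the counting is not given in the sources used here. Of the 62 genes, 34 (54.84%) overlapped another gene by at least 1 base in the tables' coordinates, against 41.14% of the other genes at 1 FPKM or more in a system. For 28 every overlap was on the opposite strand and for 5 on the same strand (CR32218 in Su(Tpl) and Mi-2, CR33963 in Tis11, CR42491 in RpL22, CR42549 in mura and CR42862 with CG33229), and for CR43496 in CG14438 the strand was not matched. In neuroblasts the 10 called genes with an overlap formed 11 pairs with another gene: in 1 pair both were called, in opposite directions, in 5 the other gene was not called and in 5 it was too low to test. The opposite pair was CR42491, lower, and RpL22, which had 1517 FPKM in *barc* RNAi and 1213 FPKM in control neuroblasts (log2 0.32, SE 0.05, adjusted p = 0.00126). In S2 cells 9 called genes formed 10 pairs, 2 of them in the same direction, 1 opposite, 6 with the other gene not called and 1 with it too low to test. sls had 7.50 FPKM after *barc* dsRNA and 0.651 FPKM after mCherry dsRNA, a log2 fold change of 2.27 (SE 0.33, adjusted p = 0.00277) beside the rise of its antisense RNA CR42860. CG31522 had 17.99 FPKM after *barc* dsRNA and 34.7 FPKM after mCherry dsRNA (log2 -0.90, SE 0.12, adjusted p = 0.00216) beside the fall of CR43629. CG3168 had 48.8 FPKM after *barc* dsRNA and 112 FPKM after mCherry dsRNA (log2 -1.27, SE 0.41, adjusted p = 0.049), opposite to CR43461. In neuroblasts CG3168 was below 1 FPKM, and CR43461 rose there too; CG15765, the partner of CR43264, was below 1 FPKM in both systems. In neuroblasts 10 of 26 genes with an overlap and 12 of 20 without were called, beside 42.9% of all genes. In S2 cells these counts were 9 of 26 and 9 of 19, beside 26.7%. The difference between genes with and without an overlap was not tested.

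The authors' deposited tables, in DESeq's column layout, called 24 of the 46 genes in neuroblasts (14 higher and 10 lower in *barc* RNAi). Over all 11035 genes with a value they called 28.1%. That set includes genes below 1 FPKM, unlike the 46, so the shares are not of like sets. Of these 24, 19 were also called in the FPKM fit, all in the same direction. The 5 neuroblast calls of the authors' deposited table alone were CR31386 (log2 0.27, adjusted p = 0.000163), CR34335 (log2 -0.30, adjusted p = 0.000575), CR18854 (log2 -0.21, adjusted p = 0.0162), CR43470 (log2 0.72, adjusted p = 0.0334) and CR31044 (log2 -0.42, adjusted p = 0.042). CR43241 and CR42491, lower in the FPKM fit, had a log2 of -0.22 (adjusted p = 0.191) and -0.08 (adjusted p = 0.558) in the authors' deposited table. In S2 cells the authors' deposited table called 18 of the 45 (11 higher and 7 lower) and 16.7% of all 12275 genes. These 12275 too include genes below 1 FPKM. Of the 18, 13 were also called in the FPKM fit, all in the same direction. The 5 S2 calls of the FPKM fit alone were CR31451 (adjusted p = 0.0814 in the authors' deposited table), CR31044 (0.17), CR43241 (0.303), CR43626 (0.141) and CR43423 (0.267). Of the 6 genes called in both systems by the FPKM fit, the authors' deposited tables thus did not call CR43241 in either system or CR31451 in S2 cells. The log2 of CR43461 in S2 cells was 1.60 in the authors' deposited table (adjusted p = 3.94e-05), beside 2.79 in the FPKM fit. It called CR32207 (log2 1.28, adjusted p = 0.000241), CR32205 (log2 1.80, adjusted p = 0.00382), CR34335 (log2 0.83, adjusted p = 0.0163), CR40469 (log2 0.75, adjusted p = 0.00789) and CR43723 (log2 -1.25, adjusted p = 0.0139), which the FPKM fit without a block did not.

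At the threshold, the lowest genes kept on their neuroblast level were CR43159, CR43730 and CR43488, with means of 1.08, 1.10 and 1.16 FPKM. Just below lay CR43473 at 0.990, CR43653 at 0.843 and CR30267 at 0.807 FPKM. In S2 cells the mir-14 host CR43651, CR43436 and CR43468 were just inside at 1.17, 1.24 and 1.47 FPKM. CR42874, CR43474 and CR43469 were just outside at 0.936, 0.924 and 0.896 FPKM; of these CR43469 is one of the 62 through its neuroblast level. CR42547 alone of the 62 had a quantification status other than OK, in mCherry dsRNA replicate 1, and it was below the threshold in S2 cells.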

How the data were processed

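Per-library values are FPKM as the authors deposited them, 1 Cufflinks gene table per library with confidence bounds, per the file headers. Cufflinks 1.3.0, TopHat 1.4.1, BWA 0.6.1, DESeq and HTSeq appear in the submitters' processing notes without their roles. The genome build is not given in the sources used here. No gene on X, 2R or 3R starts where release 6 puts it, so coordinates are printed as deposited (1-based) and release 6 (Ensembl, RefSeq) gave only names, kinds of RNA, strand and exons, by identifier for 59 of the 62 genes and by symbol for 3. The authors' deposited comparison tables hold a mean signal per group (the baseMean columns, per the file headers), its ratio (fold change), the log2 of that and p-values; the neuroblast ratio is control over *barc*, so its sign was turned. There were 0 unused columns of other samples.

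Here, limma 3.58.1 (limma-trend, R 4.3.3, two-sided, Benjamini-Hochberg over all genes tested) was run on log2(FPKM + 1), per system, over genes with a mean of at least 1 FPKM and status OK in every library of the fit; adjusted p under 0.05 was called. All 46 and 45 genes at the threshold in a system were tested there. The difference between systems was an interaction in 1 fit of all 4 groups. The code was tested on simulated data. Named genes are, in each system, the 10 highest, up to 10 called in each direction, those called in the interaction, the 3 on either side of the threshold, up to 5 called in the authors' tables alone with a 2-fold change, those with a status other than OK, CR43283, and overlapping genes. Genes described beyond these complete a kind of RNA and were chosen after their values were seen. The 62 genes and the lists were chosen with earlier results of these data known.

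Depth is the sum of implied fragments, the square of 2 times FPKM over the distance to its upper bound. The lowest chi-square per degree of freedom between replicates was 9.90, so none was counted as 1 sample. The labels do not say that replicates are separate cultures or cohorts, so p-values measure the spread between libraries, which may be technical. Same-numbered S2 libraries deviated together from their group means (Pearson r = 0.581, 0.588, 0.588 and 0.451 over genes for replicates 1 to 4). The numbers therefore served as a block in an alternative fit, and the fit that gave the 18 calls had no block. *barc* replicate 2 was as close to control 1 (0.618), and *barc* replicate 4 to control 3 (0.503). The pairing may thus be that of the first number alone. Alternatives covered pseudocount, filters, scale, blocks, status, overlaps and leaving out each library.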

Additional observations from a re-analysis of the deposited data

Results flagged for a closer look

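In S2 cells 62 groups of 4 libraries were examined for a library far from the others, and 2 were found; chance gives about 1 in 20. CR40469 stood at 16283 FPKM in *barc* dsRNA replicate 3, where the other 3 libraries of that group lay between 10058 and 10588 FPKM. CR42862 stood at 302 FPKM in the same library, below 399 to 416 FPKM in the other 3. The rise of CR31451 after *barc* depletion was larger in neuroblasts than in S2 cells by 1.36 on the log2 scale (interaction in limma, SE 0.27, adjusted p = 0.0207; 0.00889 to 0.149 over the alternatives), and it was higher than control in 2 of 2 neuroblast and 4 of 4 S2 libraries.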

How the results depend on the processing

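The count of 62 genes was 82 at a threshold of 0.5 FPKM, 46 at 2 FPKM, 51 where every library of a system had to reach 1 FPKM, 71 in TPM, and 61 to 63 without a library. The 22 calls in neuroblasts became 14 of 19 with a filter of 5 FPKM, beside 2537 of 5834 over all genes. In 1 limma fit over all 4 groups, which shares the wider S2 spread, they became 9 of 45, beside 356 of 6714. That fit kept CR43356 (adjusted p = 0.00191), CR31451 (0.000261) and CR30009 (0.0146). It did not call CR43264 (0.0581), CR43461 (0.0845), *cherub* (0.121), the bantam host CR43334 (0.164) or CR32207 (0.871). Of the 22, 12 were among the 20 genes that overlap no other gene. With a replicate block there were 24 calls in neuroblasts, beside 3158 of 6732 over all genes. The r between same-numbered neuroblast libraries was 0.0673. With 2 libraries in a group this is a single value, which cannot show whether they were paired. The 18 calls in S2 cells became 33 of 42 within replicates 1 and 2, beside 5460 of 7468 over all genes, and 9 of the 18 were among the 19 genes without an overlap. With the replicate block there were 24 calls in S2 cells, beside 2778 of 7603. Without a library there were 12 to 19, beside 1104 to 2513 over all genes. The block added CR18854 and CR43470 in neuroblasts and 6 genes in S2 cells, and changed no other call of the 2 systems. The interaction called 0 of the genes after quantile normalisation (6 at an unadjusted p under 0.05), beside 188 of 6298 over all genes. It called 6 with no filter on low values, beside 692 of 12574, and 3 with the replicate block, beside 360 of 6298. Without an S2 library it called 1 to 3 (4 to 7 unadjusted), beside 150 to 730 over all genes. The cause was not tested. The median log2 fold change in neuroblasts was 0.12 in TPM and 0.12 in TPM with the 62 genes left out of the scale, 0.0022 after quantile normalisation, -0.092 over genes without an overlap and 0.039 to 0.074 without a library; that of S2 cells (0.013) was 0.118 in TPM, 0.146 in TPM with the 62 genes left out of the scale and -0.05 to 0.07 without a library. Over single genes, 1366 values kept their direction and side of the threshold, 98 lost and 44 gained a call, and 1 turned: CR18854 in S2 cells was -0.19 within replicates 1 and 2 (adjusted p = 0.027). Depth limits genes near 1 FPKM: CR43436 rests on 15 to 25 implied fragments after *barc* dsRNA and 0 to 8 after mCherry dsRNA.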

Other observations

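Non-coding genes that carry a name in place of a CR number were listed beside the 62, and 24 of 28 were matched in the tables. In neuroblasts 11 of the 16 that reached the filter were called in limma, 4 higher and 7 lower in *barc* RNAi, beside 42.9% of all genes, and in S2 cells 1 of 16 was called, beside 26.7%. The dosage compensation RNA roX1 had 453 ± 20.0 FPKM in *barc* RNAi and 686 ± 61.8 FPKM in control neuroblasts (SD, n = 2 each; log2 -0.60, adjusted p = 0.000272 in limma). RNaseP:RNA is the RNA of the enzyme that trims tRNA ends. It stood at 6.45 ± 0.589 FPKM in *barc* RNAi and 15.8 ± 0.620 FPKM in control neuroblasts (log2 -1.18, adjusted p = 2.31e-05 in limma). Because poly(A) RNA was sequenced, this value need not follow the level of the whole RNA in the cell. The snoRNA hosts went both ways in neuroblasts: Uhg3 had 33.7 FPKM in *barc* RNAi and 18.6 FPKM in controls (log2 0.82, adjusted p = 0.000998), while Uhg7 had 10.99 FPKM in *barc* RNAi and 16.1 FPKM in controls (log2 -0.51, adjusted p = 0.000645). Uhg1, also a snoRNA host, was the gene called in S2 cells, with 29.8 ± 2.66 FPKM after *barc* dsRNA and 18.4 ± 3.94 FPKM after mCherry dsRNA (SD, n = 4 each; log2 0.69, adjusted p = 0.0134 in limma), and it was also called higher in neuroblasts (log2 0.21, adjusted p = 0.0394). These genes were chosen with earlier results of these data known.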
